A study of Mus musculus with 12 samples.

Results

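The genes described here are 10 mouse genes that encode sensors of nucleic acids outside the nucleus, with the adaptors, the kinase and the nuclease that act next to them. They are listed by name, with results of these data already known, as Mb21d1 (the tables' symbol for Cgas), Tmem173 (Sting1), Zbp1, Trex1, Ddx58 (Rigi), Ifih1, Dhx58, Tlr3, Mavs and Tbk1, of 46763 gene names listed in at least 1 of the 2 tables. All 10 were listed in the table of the mutant experiment and 9 in the table of the 2-HG experiment, where Trex1 was not listed.

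RNA-seq was performed on mouse embryonic fibroblast (MEF) cells in 4 groups of 3 libraries each. The MEF cells came from C57BL/6 embryos at embryonic day 13.5 and had become immortal spontaneously during serial passage. 2MUT cells stably expressed a cancer-associated mutant of human IDH2, FLAG-tagged and delivered by a retroviral vector, and Control cells had received the vector without an insert. Both were selected with puromycin, and nothing says that single clones were picked. Mutant IDH2 converts α-ketoglutarate to 2-hydroxyglutarate (2-HG), a metabolite that is scarce in normal cells. In the other experiment, MEF cells with no transgene were kept for 24 h in 300 μM of 2-HG, given in a membrane-permeant form (2-HG(+)), or cultured alongside as the control, 2-HG(-). According to the labels the control received DMSO, and the study's text calls it non-treated. Wild-type IDH2 cells were not analysed here. The study's methods describe its experiments as triplicates and do not say whether the 3 libraries of a group came from separate cultures, so that p-values measure the spread between these libraries, which may be technical.

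Cells treat DNA in the cytosol, or RNA with a viral structure, as a sign of infection or damage. cGAS, the product of Mb21d1, binds double-stranded DNA and makes a cyclic dinucleotide that activates STING, the product of Tmem173, whereas RIG-I (Ddx58) and MDA5 (Ifih1) bind RNA and signal through MAVS on mitochondria. Both routes meet at the kinase TBK1, which activates IRF3 and thereby type I interferon genes, and interferon in turn induces many of the sensors, so that fibroblasts hold them at a level that depends on interferon signalling.

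Expression was given as RPM, the reads of a gene per 1000000 reads counted, from an assay that amplifies a short target of each transcript, so that an RPM value was compared only between libraries for the same gene and not between genes. Depth was 6472439 to 7313602 reads per library in the mutant experiment and 14959318 to 18363768 in the 2-HG experiment, and 3 reads equalled 0.41 to 0.464 RPM and 0.163 to 0.201 RPM, respectively. The mouse Idh2 gene stood at 77.3 ± 5.54 RPM in the Control libraries (SD, n = 3) and 49.6 ± 6.39 RPM in those of 2MUT. Whether that target also amplifies the human transgene is not given in the sources used here, so that Idh2 does not check the 2MUT label. Of 10 fibroblast markers, 8 were at 1 RPM or more in Control and 7 in 2MUT, and in the 2-HG experiment 7 of the 9 listed were so in both groups, with Fap and S100a4 under 1 RPM wherever listed and Lum under 1 RPM in 3 of the 4 groups. Markers of macrophages, which carry many of these sensors, summed to 0.148 to 1.42 RPM in Control, 3.58 to 4.48 RPM in 2MUT, 1.27 to 1.9 RPM in 2-HG(-) and 1.02 to 1.5 RPM in 2-HG(+). Ptprc and Tyrobp were at or under 0.142 RPM in every library. By contrast, Lyz2 and Csf1r reached a mean of 1 RPM or more in 2MUT, where no macrophage marker did so in Control. Csf1r also did so in 2-HG(-) and 2-HG(+).

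In 2MUT, 3 of the 10 genes were lower than in Control (Zbp1, Tmem173 and Mavs) and 1 was higher (Ddx58), among 7 with a mean of at least 1 RPM that entered the test. With 2-HG, 6 were lower (Zbp1, Dhx58, Ddx58, Tlr3, Ifih1 and Tmem173) and 1 was higher (Mb21d1), among 9 tested. The test was limma on log2(RPM + 1), with Benjamini-Hochberg adjustment over all genes of a table and a threshold of 0.05. By the same rule 33.8% of all 11065 genes tested were called in 2MUT, with 16.5% higher and 17.3% lower, and 32.8% of 10384 with 2-HG, with 16.1% higher and 16.7% lower. The median log2 fold change was -0.40 over the 7 genes tested and 0.01 over all genes in 2MUT, and -0.87 over the 9 genes tested and -0.02 over all genes with 2-HG. The libraries of the 2 groups did not overlap for 4 genes in 2MUT and for 7 with 2-HG, and over all genes tested this was so for 47.5% and 46.3%. The plot of RPM by library shows these levels gene by gene.

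**Figure D1:**
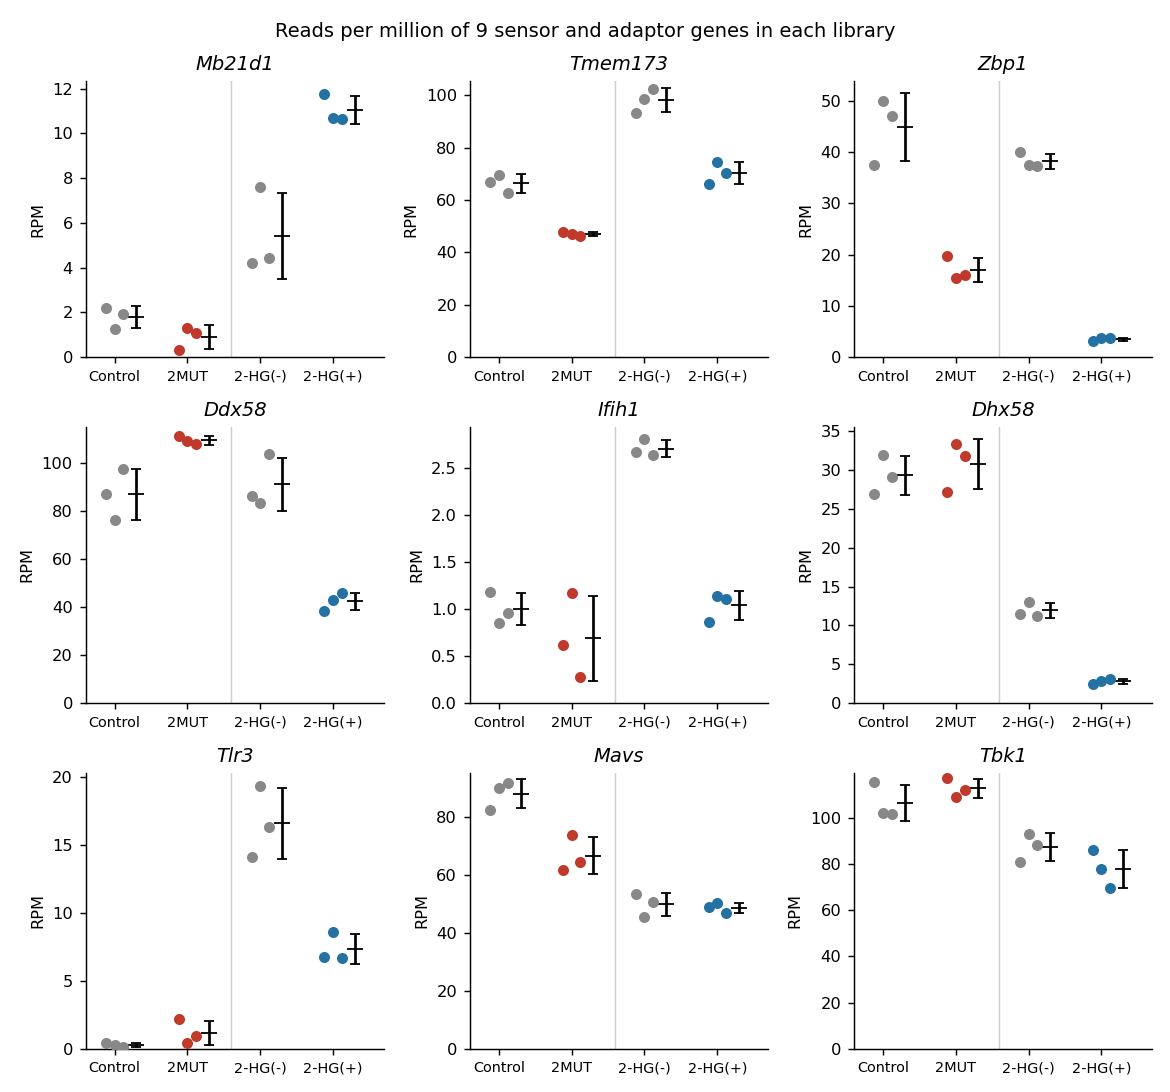
RPM of 9 genes (vertical axes, each from 0) in the 3 libraries of each group (points), with the mean and SD beside them (black bars). Left of the grey line are Control and 2MUT, right of it 2-HG(-) and 2-HG(+), which come from separate tables. Zbp1 lay at 15.4 to 19.6 RPM in 2MUT, under all Control libraries, and at 3.17 to 3.72 RPM in 2-HG(+), under all 2-HG(-) libraries. Trex1, listed at 0 or not listed, is not drawn.

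With 2-HG the DNA sensor rose and its adaptor fell. Mb21d1 lies on the minus strand at chr9:78430526-78443237 (GRCm38, GENCODE M21) and encodes cGAS. Few of its reads were counted in the mutant experiment, at 2.22, 1.28 and 1.91 RPM in Control (15, 9 and 14 reads) and 0.309, 1.32 and 1.1 RPM in 2MUT (2, 9 and 8 reads). These libraries overlapped, and the log2 fold change of -0.58 did not pass the test (95% interval -1.22 to 0.06, limma, Benjamini-Hochberg adjusted p = 0.15). In the 2-HG experiment, Mb21d1 rose from 4.19, 7.62 and 4.44 RPM to 11.8, 10.7 and 10.7 RPM. All 3 treated libraries were above all untreated ones, of which the second stood higher than the others. This was a 2.04-fold rise in mean RPM, and the log2 fold change was 0.95 ± 0.20 (SE; limma, Benjamini-Hochberg adjusted p = 0.0053). Mb21d1 was the only one of the 9 tested genes that was called higher with 2-HG. An unmoderated test gave an adjusted p of 0.064 after Benjamini-Hochberg adjustment, and limma without 1 library at a time gave 0.00069 to 0.029.

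Tmem173 encodes STING, the adaptor in the endoplasmic reticulum that the product of cGAS binds, and lies on mouse chromosome 18. It was at 67.0, 69.7 and 62.5 RPM in Control and at 47.7, 47.1 and 46.2 RPM in 2MUT. The 2-HG(-) libraries held 93.3, 98.3 and 102.4 RPM and the 2-HG(+) libraries 66.0, 74.4 and 70.3 RPM. In both experiments every library of the mutant or treated group was under every library of its own control group. The fall was 29.1% of the mean RPM in 2MUT and 28.3% with 2-HG. On the log2 scale this was a change of -0.49 ± 0.11 (SE; limma, Benjamini-Hochberg adjusted p = 0.0058) in 2MUT. It was -0.48 ± 0.10 (SE; limma, Benjamini-Hochberg adjusted p = 0.0047) with 2-HG. Both calls were kept without any 1 library, with log2 fold changes from -0.53 to -0.45 and from -0.52 to -0.43. A lower level of a gene in such bulk RNA can come from fewer cells that express it or from less RNA per cell, and these cannot be told apart.

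Zbp1 encodes a sensor of left-handed (Z-form) nucleic acids that can start inflammatory cell death through RIPK3, and it lies on the minus strand at chr2:173206612-173218923. It was at 37.4, 49.999 and 47.0 RPM in Control and 19.6, 15.4 and 16.0 RPM in 2MUT, a 2.64-fold lower mean. The 2-HG(-) libraries held 39.9, 37.4 and 37.2 RPM, and the 2-HG(+) libraries 3.17, 3.67 and 3.72 RPM, a 10.8-fold lower mean. Among the tested genes of the 10, Zbp1 showed the largest fall in both experiments, and no library of one group reached the other group. The change on the log2 scale was -1.35 ± 0.16 (SE; limma, Benjamini-Hochberg adjusted p = 0.0001) in 2MUT. Under 2-HG the change was -3.12 ± 0.12 (SE; limma, Benjamini-Hochberg adjusted p = 5.6e-07). Without any 1 library the log2 fold change ran from -1.47 to -1.26 for 2MUT, and from -3.15 to -3.06 for 2-HG.

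Trex1 encodes the exonuclease that degrades cytosolic DNA before cGAS meets it. It lies on the minus strand at chr9:109057933-109059734, inside the annotated span of Atrip, which is on the same strand. Trex1 was listed at 0 in all 6 libraries of the mutant experiment. Some genes that every cell uses were also listed near 0 there, with Gapdh at 2.72 ± 0.938 RPM and Tuba1b at 0.0493 ± 0.0854 RPM in Control (SD, n = 3). Others were not, with Actb at 6972 ± 252 RPM in Control. Atrip was at 0 to 0.146 RPM. Trex1, Gapdh, Tuba1b and Atrip were not listed in the 2-HG experiment, so that no value of Trex1 could be compared.

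Of the cytosolic RNA sensors, Ddx58 was called in opposite directions in the 2 experiments, and Dhx58 and Ifih1 were called lower with 2-HG. The promoters of Ddx58, Ifih1 and Mb21d1 (listed as Cgas) are shown because interferon-stimulated genes often carry the core GAAANNGAAA near their start. Interferon-activated transcription factors bind that sequence. With 2-HG, Ddx58 and Ifih1 were called lower and Mb21d1 higher. Tlr3, whose window is not shown and did not hold the core, was also called lower with 2-HG. Whether the core relates to the direction of a change was not tested. Sequences are from RefSeq (GRCm38.p6), all on the minus strand and written 5′ to 3′. The windows are chr4:40239796-40240075 for Ddx58, chr2:62646256-62646505 for Ifih1, chr2:62646206-62646235 for a site after the start of Ifih1, and chr9:78443208-78443487 for Mb21d1. Each promoter begins 250 bases before the start of transcription, and those of Ddx58 and Mb21d1 run 30 bases past it. Capitals mark a match to GAAANNGAAA on either strand.
Ddx58 promoter: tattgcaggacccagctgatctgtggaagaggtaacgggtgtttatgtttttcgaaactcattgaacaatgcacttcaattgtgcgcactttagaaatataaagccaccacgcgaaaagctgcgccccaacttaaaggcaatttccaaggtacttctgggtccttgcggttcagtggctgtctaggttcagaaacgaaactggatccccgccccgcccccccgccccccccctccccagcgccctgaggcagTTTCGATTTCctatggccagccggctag
Ifih1 promoter: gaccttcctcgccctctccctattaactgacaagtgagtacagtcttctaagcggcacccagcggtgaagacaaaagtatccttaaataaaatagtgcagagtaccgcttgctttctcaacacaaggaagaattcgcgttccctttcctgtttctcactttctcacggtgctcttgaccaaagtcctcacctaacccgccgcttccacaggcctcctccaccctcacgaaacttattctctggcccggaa
Ifih1 site: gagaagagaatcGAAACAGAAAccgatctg
Mb21d1 promoter: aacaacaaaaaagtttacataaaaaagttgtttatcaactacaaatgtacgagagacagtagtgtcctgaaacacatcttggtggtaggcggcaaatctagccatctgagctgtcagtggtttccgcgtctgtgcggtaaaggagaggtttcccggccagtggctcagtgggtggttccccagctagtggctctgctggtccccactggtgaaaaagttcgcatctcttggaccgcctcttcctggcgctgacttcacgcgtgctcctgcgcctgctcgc

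The search covered 300 bases a promoter, 250 before and 50 after the start. Promoters of 7 of the 10 genes were found in the table and 2 held the core. In Ddx58 it was read on the opposite strand, as TTTCGATTTC, 2 to 11 bases after the first transcribed base, at chr4:40239814-40239823. In Ifih1 it was GAAACAGAAA, 32 to 41 bases after the first transcribed base, at chr2:62646214-62646223. The windows of Mb21d1, Mavs, Tbk1, Trex1 and Tlr3 did not hold these letters, and promoters of Tmem173, Zbp1 and Dhx58 were not used here. Of all 32851 promoters of that length, 1131 (3.44%) held the core. A match describes the sequence and is not a measured binding site.

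Ddx58 lies at chr4:40203773-40239828 on the minus strand and encodes RIG-I, which recognises RNA with a free triphosphate at its 5′ end. It was at 87.2, 76.2 and 97.8 RPM in Control and 111.6, 109.4 and 107.9 RPM in 2MUT. All 2MUT libraries were above all Control libraries, and the mean was 1.26-fold higher. This came to a log2 fold change of 0.34 ± 0.11 (SE; limma, Benjamini-Hochberg adjusted p = 0.040). That call was lost in 5 of the 6 fits that left out 1 library, with limma, Benjamini-Hochberg adjusted p from 0.065 (without Control 1) to 0.12 (without Control 2), and was kept only without Control 3 (0.012), libraries being named by group and replicate number. It was also lost with no minimum level (0.054), with no trend (0.085) and in an unmoderated test (0.098).

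With 2-HG, Ddx58 moved the other way. The 2-HG(-) libraries held 86.4, 83.6 and 103.9 RPM and the 2-HG(+) libraries 38.5, 43.0 and 45.7 RPM, a 2.15-fold lower mean. The groups were far apart, with the highest treated library at 45.7 RPM and the lowest untreated one at 83.6 RPM. The log2 fold change was -1.08 ± 0.12 (SE; limma, Benjamini-Hochberg adjusted p = 0.00015).

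Dhx58, at chr11:100694884-100704271 on the minus strand, encodes LGP2, a relative of RIG-I and MDA5 without their signalling domains that tunes their response. It was at 26.9, 31.9 and 29.1 RPM in Control and 27.2, 33.4 and 31.8 RPM in 2MUT. These libraries lay over each other, and the log2 fold change of 0.07 did not pass the test (95% interval -0.24 to 0.37, limma, Benjamini-Hochberg adjusted p = 0.75). In the 2-HG experiment, Dhx58 fell from 11.5, 13.0 and 11.2 RPM to 2.51, 2.83 and 3.14 RPM, a 4.22-fold lower mean. The groups did not overlap, and the log2 fold change was -1.76 ± 0.14 (SE; limma, Benjamini-Hochberg adjusted p = 2.1e-05). An antisense transcript, Dhx58os, overlaps the gene and was at 1.14 RPM or less in the mutant experiment. Whether the counting used strand is not given in the sources used here, so that their reads cannot be told apart.

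Ifih1, at chr2:62595798-62646255 on the minus strand, encodes MDA5, which binds long double-stranded RNA. In the mutant experiment it was at 1.18, 0.855 and 0.957 RPM in Control (8, 6 and 7 reads) and 0.618, 1.17 and 0.275 RPM in 2MUT (4, 8 and 2 reads), under the minimum for the test. Without that minimum the log2 fold change was -0.27 and did not pass (limma, Benjamini-Hochberg adjusted p = 0.47). With 2-HG, Ifih1 fell from 2.67, 2.81 and 2.64 RPM to 0.859, 1.14 and 1.11 RPM. The 49 reads of the treated group were set against 135 in the untreated group, the libraries did not overlap and the mean was 2.61-fold lower. The log2 fold change was -0.87 ± 0.14 (SE; limma, Benjamini-Hochberg adjusted p = 0.0015), and the added 1 RPM makes it smaller than the ratio of the means.

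Tlr3 encodes the receptor for double-stranded RNA in endosomes, which signals through TRIF rather than MAVS, and lies at chr8:45395665-45411080 on the minus strand. It was at 0.444, 0.285 and 0.137 RPM in Control (3, 2 and 1 reads) and 2.16, 0.439 and 0.963 RPM in 2MUT (14, 3 and 7 reads), and was not tested. The lowest 2MUT library and the highest Control library both held 3 reads. Without the minimum level the log2 fold change was 0.69 and did not pass (limma, Benjamini-Hochberg adjusted p = 0.10). In the 2-HG experiment, Tlr3 fell from 14.2, 19.4 and 16.3 RPM to 6.74, 8.6 and 6.67 RPM, a 2.27-fold lower mean with no overlap. That gave a log2 fold change of -1.08 ± 0.16 (SE; limma, Benjamini-Hochberg adjusted p = 0.00081). An antisense gene, Gm45542, overlaps Tlr3 and was not listed in either table.

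Of the genes on which the sensors converge, Mavs was called lower in 2MUT, and Tbk1 was called in neither experiment. Mavs, at chr2:131234063-131248025 on the plus strand, encodes the mitochondrial adaptor of RIG-I and MDA5. It was at 82.6, 90.0 and 91.7 RPM in Control and 61.8, 73.9 and 64.4 RPM in 2MUT, with no overlap and a 24.3% lower mean. The log2 fold change was -0.40 ± 0.11 (SE; limma, Benjamini-Hochberg adjusted p = 0.019). That call was lost without 2MUT 1 (limma, Benjamini-Hochberg adjusted p = 0.080) and without 2MUT 3 (0.067), and in an unmoderated test (0.053). In the 2-HG experiment the untreated libraries held 53.4, 45.7 and 50.6 RPM and the treated ones 48.9, 50.3 and 46.8 RPM. The treated libraries lay within the range of the untreated ones, and the log2 fold change was -0.03 (95% interval -0.27 to 0.20, limma, Benjamini-Hochberg adjusted p = 0.83).

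Tbk1, at chr10:121546455-121586787 on the minus strand, encodes the kinase that phosphorylates STING, MAVS and IRF3. It was at 115.7, 102.1 and 101.6 RPM in Control and 117.3, 108.9 and 112.1 RPM in 2MUT. The 2-HG(-) libraries held 81.1, 92.9 and 88.4 RPM and the 2-HG(+) libraries 86.2, 77.7 and 69.8 RPM. The groups overlapped in both experiments. The log2 fold change was 0.08 in 2MUT (95% interval -0.14 to 0.31, limma, Benjamini-Hochberg adjusted p = 0.55). It was -0.17 with 2-HG (95% interval -0.41 to 0.08, limma, Benjamini-Hochberg adjusted p = 0.27). The intervals leave room for a fall of 0.41 or a rise of 0.31 on the log2 scale.

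**Figure D2:**
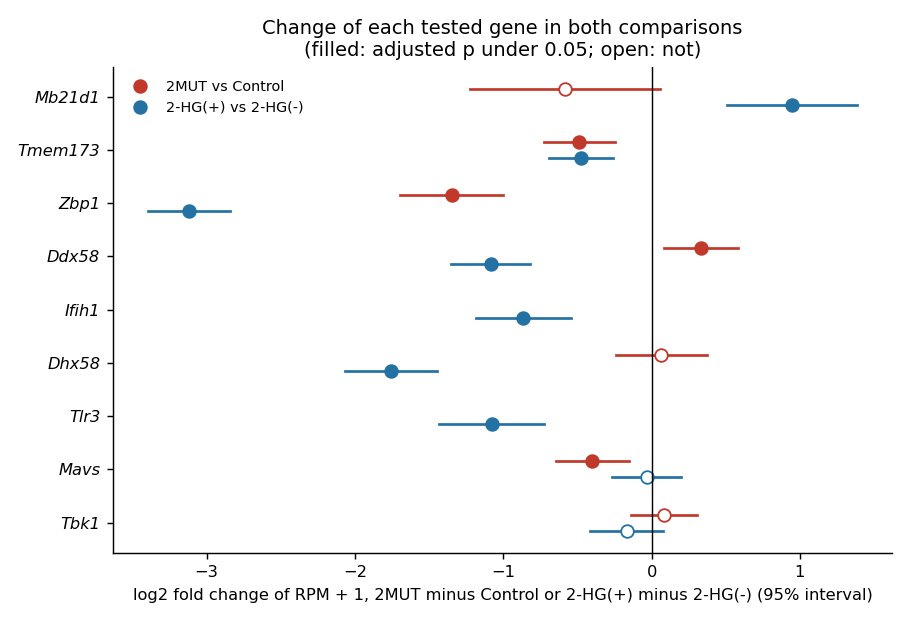
Log2 fold change of RPM + 1 (horizontal axis, with 95% intervals) of each tested gene in 2MUT against Control (red) and in 2-HG(+) against 2-HG(-) (blue). Filled points passed the adjusted p of 0.05 in limma and open points did not. Tmem173 lay at -0.49 and -0.48, Ddx58 at 0.34 and -1.08, and Zbp1 at -1.35 and -3.12.

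Whether a change differed between stable expression of the mutant and 24 h of 2-HG was tested over all 12 libraries, as the change in 2MUT minus the change with 2-HG, for the 7 genes tested in both experiments. The experiments share no control library. Of the 7 genes, 4 passed, 3 with a higher and 1 with a lower change in 2MUT, against 39.4% of 9594 genes, of which 19.9% were higher and 19.5% lower. For Dhx58 the change in 2MUT was 1.82 higher on the log2 scale (95% interval 1.41 to 2.23, limma, Benjamini-Hochberg adjusted p = 6.4e-06). For Zbp1 it was 1.77 higher (1.34 to 2.20, limma, Benjamini-Hochberg adjusted p = 1.2e-05), Zbp1 having fallen in both and further with 2-HG. For Ddx58, called in opposite directions, it was 1.42 higher (1.06 to 1.78, limma, Benjamini-Hochberg adjusted p = 1.8e-05). For Mb21d1 it was lower, at -1.53 (-2.27 to -0.79, limma, Benjamini-Hochberg adjusted p = 0.0033). These 4 calls were kept when any 1 of the 12 libraries was left out.

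The other 3 genes did not pass this test. The difference for Tmem173 was -0.01 (95% interval -0.29 to 0.27, limma, Benjamini-Hochberg adjusted p = 0.95). That for Mavs was -0.37 (-0.68 to -0.05, limma, Benjamini-Hochberg adjusted p = 0.063), and so the call of Mavs in 2MUT alone does not show that its changes differ. For Tbk1 it was 0.25 (-0.06 to 0.57, limma, Benjamini-Hochberg adjusted p = 0.19). The 2 experiments differ in the length of exposure, in the transgene and its vector, in the list of genes in the table and in depth, and these cannot be told apart.

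The summed RPM of the fibroblast markers was lower in 2MUT and in 2-HG(+) than in their controls. That sum was 11459 to 12550 RPM in Control and 7881 to 8491 RPM in 2MUT, and 19738 to 21276 RPM in 2-HG(-) and 13547 to 14771 RPM in 2-HG(+). Its part in the lower levels of Zbp1 and Tmem173 was not tested. The summed macrophage markers were higher in 2MUT than in Control, led by Lyz2 at 2.62 ± 0.141 RPM against 0.56 ± 0.361 RPM (SD, n = 3), and their part in the higher Ddx58 was not tested. Of the 7 macrophage markers listed in that experiment, 4 were at 0 in all Control libraries and 4 in all 2MUT libraries. At a mean of 1 RPM or more there were 0 in Control and 2 in 2MUT (Lyz2 and Csf1r).

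Further genes of the same pathways, 67 in 6 lists by role, were examined in the same fits. In 2MUT, 51 had a mean of at least 1 RPM, and 9 were higher and 7 lower, with a median log2 fold change of 0.02. With 2-HG, 53 were tested, and 5 were higher and 19 lower, with a median of -0.19. The medians over all genes were 0.01 and -0.02. The shares called were 17.6% higher and 13.7% lower in 2MUT, near the 16.5% and 17.3% of all genes, and 9.43% higher and 35.8% lower with 2-HG, beside 16.1% and 16.7% of all genes. The plot of partner genes by role shows each value.

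**Figure D3:**
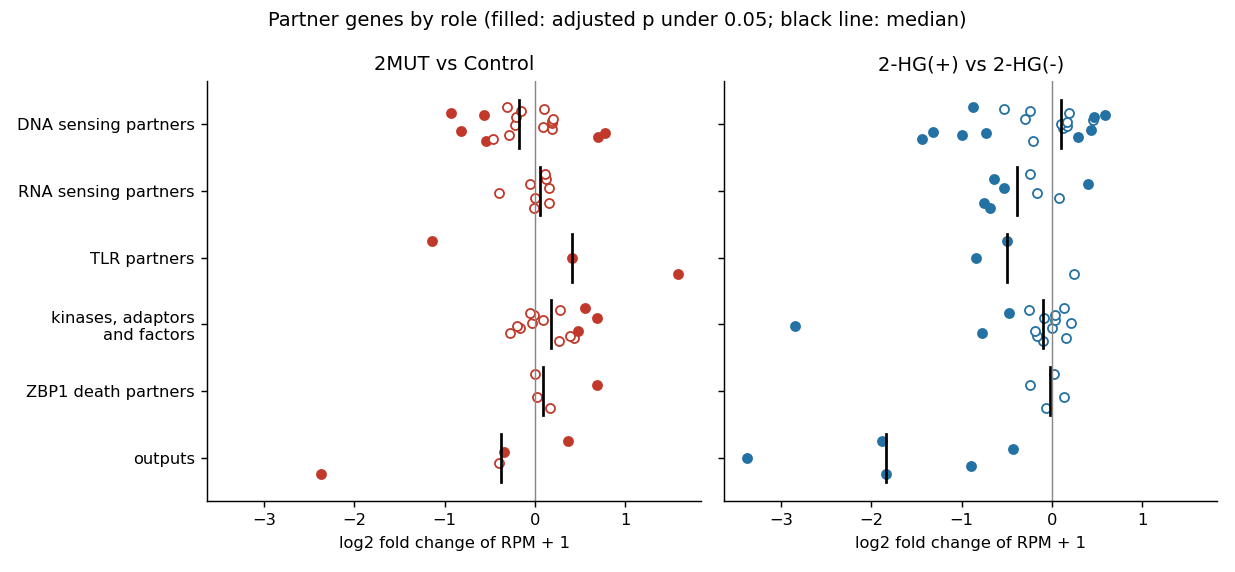
Log2 fold change of RPM + 1 (horizontal axes) of the tested partner genes, in 6 lists by role, in 2MUT against Control (left, red) and in 2-HG(+) against 2-HG(-) (right, blue). Filled points passed the adjusted p of 0.05 in limma, open points did not, and black lines are medians of the lists. The 5 tested outputs were all lower with 2-HG, with a median of -1.83, against -0.38 over 4 in 2MUT.

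Among partners of DNA sensing, 2 of 18 tested rose and 4 fell in 2MUT, and 4 of 19 rose and 5 fell with 2-HG. These are 11.1% and 22.2% in 2MUT and 21.1% and 26.3% with 2-HG, beside 16.1% to 17.3% of all genes in a given direction. With 2-HG, edgeR called 3 of these partners higher and 6 lower, and DESeq2 called 5 higher and 7 lower. Enpp1, which degrades the cyclic dinucleotide made by cGAS, fell from 14.3 ± 0.976 to 4.63 ± 0.285 RPM with 2-HG (log2 fold change -1.44; limma, Benjamini-Hochberg adjusted p = 4.7e-05). It was at 4.87 ± 1.47 RPM in Control and 3.16 ± 0.181 RPM in 2MUT, which did not pass (limma, Benjamini-Hochberg adjusted p = 0.15). RNase H2, which removes ribonucleotides from DNA, has 3 subunits. Rnaseh2a fell by 0.57 in 2MUT and rose by 0.46 with 2-HG on the log2 scale, Rnaseh2c fell by 0.94 in 2MUT, from 25.04 ± 1.64 to 12.6 ± 1.05 RPM, and Rnaseh2b rose by 0.59 with 2-HG, from 27.6 ± 3.98 to 41.8 ± 3.41 RPM. An unmoderated test did not call the rise of Rnaseh2b (Benjamini-Hochberg adjusted p = 0.0501; limma without 1 library gave 0.0037 to 0.039).

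G3bp1, a stress-granule protein that aids cGAS in binding DNA, was higher in both, by 0.70 and 0.28. Of the related interferon-inducible genes Ifi203, Ifi204 and Mndal, Mndal fell by 0.83 and 1.31, Ifi203 fell by 0.99 with 2-HG, and Ifi204 rose by 0.77 in 2MUT and fell by 0.73 with 2-HG. These 3 are close copies of each other, and reads could be split between them, so that their values are uncertain. The rise of Ifi204 was lost without Control 1, where it came to 0.45 (limma, Benjamini-Hochberg adjusted p = 0.11), and without any 1 of the 2MUT libraries (0.075 to 0.12), and its fall without 2-HG(-) 1 or 3 or 2-HG(+) 1 or 3 (0.051 to 0.12). The rise of G3bp1 with 2-HG was lost without any library but 2-HG(+) 1 (limma, Benjamini-Hochberg adjusted p from 0.059 to 0.094). Dnase2a fell in 2MUT by 0.54, a call that an unmoderated test did not give (Benjamini-Hochberg adjusted p = 0.073; 0.0091 in limma), and with 2-HG Trim56 fell by 0.88 and Polr3a rose by 0.43. The call of Polr3a was lost without 2-HG(-) 1 or 3 or 2-HG(+) 1 or 2 (limma, Benjamini-Hochberg adjusted p from 0.086 to 0.15). It was also lost in 8 of the 12 other settings, among them edgeR (Benjamini-Hochberg adjusted p = 0.054).

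No partner of RNA sensing passed in 2MUT, of 8 tested with limma, beside 33.8% of all genes, and none with edgeR or DESeq2, and 1 (Prkra) had an unadjusted p under 0.05 in limma. With 2-HG, 4 of 8 fell, beside 16.7% of all genes, and 1 rose, beside 16.1%. Eif2ak2, which encodes the RNA-activated kinase PKR, went from 59.2 ± 2.09 to 34.8 ± 3.25 RPM (log2 fold change -0.75; limma, Benjamini-Hochberg adjusted p = 0.00072), and Adar, whose product edits double-stranded RNA so that MDA5 does not sense it, from 102.8 ± 4.94 to 63.6 ± 0.705 RPM (-0.68; adjusted p = 0.00049). Trim25 and Rnf135, ubiquitin ligases that activate RIG-I, fell by 0.64 and 0.53. The call of Rnf135 was lost without 2-HG(-) 1 or 3 or 2-HG(+) 2 or 3 (limma, Benjamini-Hochberg adjusted p from 0.076 to 0.16). Tomm70a, a mitochondrial import receptor that binds MAVS, rose by 0.40, a call that was lost without 2-HG(-) 2 or 3 or 2-HG(+) 2 or 3 (limma, Benjamini-Hochberg adjusted p from 0.086 to 0.12).

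Of the partners of toll-like receptors, only Ticam1, Myd88 and Cd14 were tested. Ticam1 encodes TRIF, the adaptor of TLR3. It was at 69.0, 89.6 and 77.1 RPM in Control and 34.6, 38.1 and 32.5 RPM in 2MUT, and it fell by 1.14 (log2; limma, Benjamini-Hochberg adjusted p = 8.9e-05). Its change with 2-HG was -0.49 (limma, Benjamini-Hochberg adjusted p = 0.022), and this was lost without 2-HG(-) 1 or 3 or 2-HG(+) 1 or 2 (0.050 to 0.093). Cd14, a co-receptor, rose from 12.2 ± 2.24 to 38.5 ± 5.60 RPM in 2MUT (log2 fold change 1.58; limma, Benjamini-Hochberg adjusted p = 6.5e-05). Macrophages also express Cd14, and the summed macrophage markers were at 0.148 to 1.42 RPM in Control and 3.58 to 4.48 RPM in 2MUT. Lyz2 was at 0.56 ± 0.361 RPM in Control and 2.62 ± 0.141 RPM in 2MUT, and Csf1r at 0.19 ± 0.329 and 1.28 ± 0.529 RPM (SD, n = 3). Ptprc and Tyrobp stayed at or under 0.142 RPM in every library. The part of the macrophage markers in the higher Cd14 was not tested. Cd14 was at 12.4 ± 1.36 and 14.8 ± 1.38 RPM in the 2-HG experiment (adjusted p = 0.21 in limma with Benjamini-Hochberg). Myd88, the adaptor of most other toll-like receptors, rose by 0.41 in 2MUT and fell by 0.84 with 2-HG. The rise was lost without any library but Control 3 (limma, Benjamini-Hochberg adjusted p from 0.051 to 0.11), and the fall without 2-HG(-) 2 (0.075) or 2-HG(-) 3 (0.11). Without 2-HG(+) 2 the log2 fold change of that fall was -0.51, still called.

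Of 14 kinases, adaptors and transcription factors tested, 3 rose and none fell in 2MUT, and none rose and 3 fell with 2-HG, in limma and edgeR. DESeq2 called 5 higher in 2MUT, adding Azi2 and Ikbkb, and neither it nor an unadjusted p under 0.05 in limma gave a call in the directions with none. The 3 of 14 were 21.4%, beside 16.5% of all genes higher in 2MUT and 16.7% lower with 2-HG. The rises were Tank, by 0.68, Traf6, by 0.56, and Ikbkg, by 0.47. That of Traf6 was lost without 2MUT 1 or 2MUT 3 (limma, Benjamini-Hochberg adjusted p = 0.062 and 0.058), and that of Ikbkg without Control 1 or any 1 of the 2MUT libraries (0.063 to 0.11). An unmoderated test called none of the 3 (Benjamini-Hochberg adjusted p from 0.076 to 0.14). Irf7 encodes an interferon-inducible transcription factor that amplifies interferon production. It was at 15.2, 12.8 and 14.6 RPM in 2-HG(-) and 0.926, 1.32 and 1.11 RPM in 2-HG(+), and it fell by 2.84 (log2; limma, Benjamini-Hochberg adjusted p = 1.9e-06). In Control it was at 22.2 ± 1.87 RPM and in 2MUT at 19.4 ± 3.01 RPM, which did not pass (limma, Benjamini-Hochberg adjusted p = 0.36). Ikbke, the interferon-inducible relative of Tbk1, fell by 0.78 with 2-HG (Benjamini-Hochberg adjusted p = 0.066 in an unmoderated test). Traf2 fell by 0.48, a call that was lost without any 1 of the 2-HG(-) libraries or without 2-HG(+) 1, where the log2 fold change was -0.31 (limma, Benjamini-Hochberg adjusted p from 0.057 to 0.11). Of the 4 genes that act with ZBP1 in cell death, 1 (Ripk1) was higher in 2MUT, by 0.69, beside 16.5% of all genes. That call was lost without Control 1, Control 2 or 2MUT 1 (limma, Benjamini-Hochberg adjusted p from 0.051 to 0.067). None of the 4 passed with 2-HG in limma, edgeR or DESeq2, or at an unadjusted p under 0.05 in limma. Of all genes, 32.8% were called with 2-HG, so that no call among 4 genes says little about them.

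The outputs of the pathways are genes that they switch on. Of those tested, 1 of 4 rose and 2 fell in 2MUT, beside 16.5% and 17.3% of all genes, and 5 of 5 fell with 2-HG, beside 16.7%. Ccl5, a chemokine gene, fell in both experiments, from 198.6 ± 8.03 to 37.6 ± 2.68 RPM in 2MUT and from 924.8 ± 69.6 to 258.4 ± 12.5 RPM with 2-HG. Its log2 fold change was -2.37 in 2MUT (limma, Benjamini-Hochberg adjusted p = 1.5e-07) and -1.83 with 2-HG (limma, Benjamini-Hochberg adjusted p = 2.2e-06). Ifit1, an interferon-induced inhibitor of viral translation, was at 65.6, 88.3 and 70.6 RPM in 2-HG(-) and 6.61, 5.89 and 6.21 RPM in 2-HG(+). It fell by 3.38 (log2; limma, Benjamini-Hochberg adjusted p = 6e-07). In 2MUT it fell by 0.35 (limma, Benjamini-Hochberg adjusted p = 0.039), a call that was lost without any 1 of the 6 libraries (0.051 to 0.15). Rsad2 and Cxcl10 fell by 1.88 and 0.90 with 2-HG. Ifit2 rose by 0.36 in 2MUT, lost without any library but Control 3 (limma, Benjamini-Hochberg adjusted p from 0.051 to 0.11), and fell by 0.43 with 2-HG, lost without 2-HG(-) 1 or 3 or 2-HG(+) 1 or 2 (0.071 to 0.12).

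Ifnb1, the gene of interferon beta, was under the minimum for the test in both experiments, and its values are given although it was picked out after they were seen. It was at 0, 0.142 and 0.273 RPM in Control (0, 1 and 2 reads) and 0.464, 0.732 and 0.963 RPM in 2MUT (3, 5 and 7 reads). The 2-HG(-) libraries held 0.381, 0.401 and 0.42 RPM (7, 6 and 7 reads) and the 2-HG(+) libraries 0.066, 0.06 and 0.065 RPM (1 read each). The groups did not overlap in either experiment, with all 2MUT libraries above Control and all treated libraries under the untreated ones. Without the minimum level the log2 fold change was 0.59 in 2MUT (limma, Benjamini-Hochberg adjusted p = 0.028). In the 2-HG experiment it came to -0.40 (limma, Benjamini-Hochberg adjusted p = 0.0009). Both values rest on 1 to 7 reads a library, or none in 1 Control library.

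For the 3 sensor genes called in both experiments, the genes with the most similar pattern were sought among 6972 genes, by Pearson's correlation of log2(RPM + 1) over the 12 libraries after the mean of each table was subtracted. The libraries fall into 4 groups, so that a high correlation describes shared group differences. Postn (0.993) and Thbs2 (0.984) were among the 3 nearest to Zbp1, Cx3cl1 (0.969) and Aldh6a1 (0.965) among the 3 nearest to Tmem173, and Nrep (0.978), Nrp2 (0.977) and Thbs1 (0.972) were the 3 nearest to Ddx58. Postn, which encodes a matrix protein of fibroblasts, changed by -1.50 and -3.03 on the log2 scale in the mutant and the 2-HG experiment, beside -1.35 and -3.12 for Zbp1.

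The calls of the sensor genes differed in how far they lay from the threshold. With 2-HG, 7 of 7 calls were kept in each of the 6 fits without 1 library, whereas in 2MUT those of Zbp1 and Tmem173 were kept in 6 of 6, that of Mavs in 4 and that of Ddx58 in 1. The plot of adjusted p-values by setting shows this spread.

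**Figure D4:**
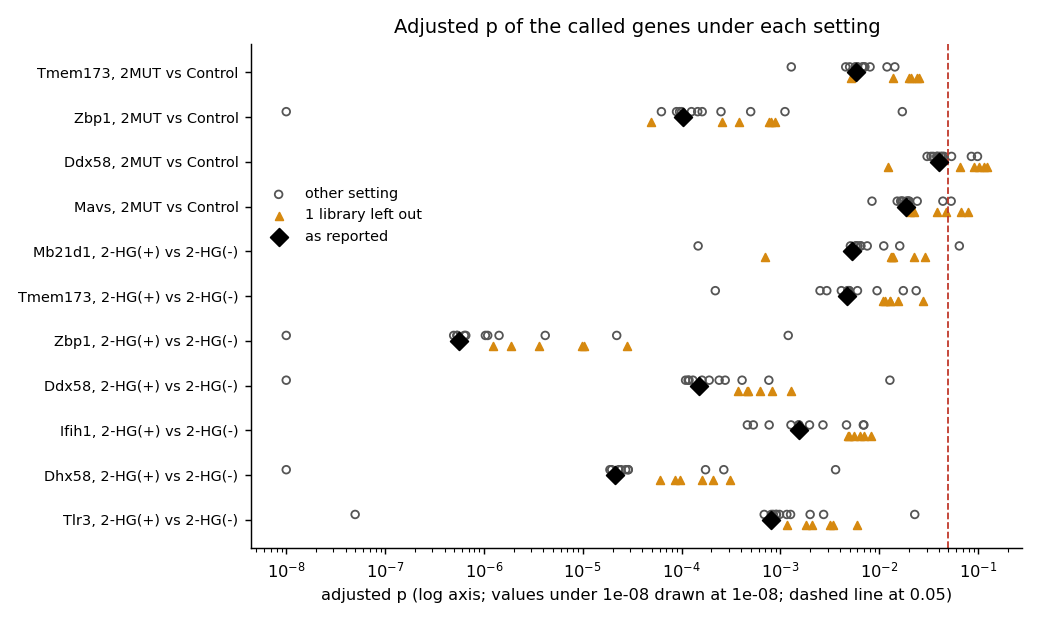
Adjusted p (horizontal log axis) of the 11 calls, as reported (black diamonds), under the other settings (open circles) and with 1 library left out (orange triangles). The dashed line is the threshold of 0.05. Ddx58 in 2MUT crossed it in 5 of 6 fits without 1 library and Mavs in 2, and the calls with 2-HG did not in these fits.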

How the data were processed

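Total RNA of MEF cells was made into Ion AmpliSeq transcriptome libraries and sequenced on the Ion Proton system. The authors aligned the reads with TMAP, used the AmpliSeqRNA plug-in for counting, and deposited RPM values, scaled to 1000000 counted reads a library, in 1 table per experiment with 43280 and 23930 entries. The reference was the AmpliSeq mouse transcriptome, and its genome build is not given in the sources used here. No column was left unmapped. Each library is 1 replicate. Whole reads were recovered from RPM, since 99.3% to 100% of the values of a library were whole multiples of 1 read within 0.001 RPM. Floors of 3 reads cover counting error only.

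The two-sided moderated test of limma 3.58.1 (R 4.3.3), with a mean-variance trend, was applied to log2(RPM + 1) over the 6 libraries compared, for genes whose mean reached 1 RPM. Tables were analysed apart because they list different entries. The difference between the comparisons was a contrast over 12 libraries. Adjustment was by Benjamini-Hochberg over all genes tested, at 0.05. A fold change on this scale understates the change of genes near 1 RPM. The alternatives were edgeR 4.0.16 and DESeq2 1.42.0 on the recovered reads, an unmoderated test, a fit without the trend, each library left out, a block for the replicate number, quantile, 75th percentile or median-of-ratios scaling, no minimum level or one of 10 RPM, and 0.1 RPM in place of the added 1 or a floor of 1 RPM with none added. The unmoderated test is a Student's t-test for each gene. The study used this kind of test, with Benjamini-Hochberg adjustment at 0.05, on values processed with other software. No added alternative was used. The tests were checked on simulated data. Coordinates are those of GENCODE M21 on GRCm38, and promoters those of RefSeq on GRCm38.p6. Tables and plots used pandas 2.3.3 and matplotlib 3.10.9.

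The 10 genes, the lists and the markers were chosen with earlier results of these data known. Named are the 10 genes, Idh2, up to 2 genes in each direction of each list with the largest fold changes among those called, with no overlap and 10 RPM or more in the higher group, any gene behind a count of 5 or fewer calls in 1 direction of a list (as for Dnase2a, Ifi203, Trim56 and Polr3a), and the 3 nearest genes by pattern, some of which are not reported here.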

Additional observations from a re-analysis of the deposited data

Results flagged for a closer look

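The differences below were picked out because the change in 2MUT and the change with 2-HG differed by the test of the difference itself, in limma over the 12 libraries. Each value is the log2 change in 2MUT minus that with 2-HG. Groups of 3 libraries were too small for a test of single outlying libraries. Of the sensors, Dhx58 (1.82), Zbp1 (1.77) and Ddx58 (1.42) changed more upwards or less downwards in 2MUT, and Mb21d1 (-1.53) the other way.

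Of the partner genes called in either experiment, Ifit1 (3.03), Irf7 (2.64), Ifi204 (1.51), Cd14 (1.35), Myd88 (1.25), Enpp1 (0.97), Ripk1 (0.93), Eif2ak2 (0.91), Ifit2 (0.79), Tank (0.78), Trim25 (0.76), Ifi203 (0.70), Adar (0.67), Ikbkg (0.66) and G3bp1 (0.41) had a higher change in 2MUT. Those with a lower change in 2MUT were Rnaseh2c (-1.12), Rnaseh2a (-1.03), Ticam1 (-0.64) and Ccl5 (-0.54). Over all partner genes tested in both experiments, 16 of 51 had a higher and 5 a lower change in 2MUT, beside 19.9% and 19.5% of all genes. Ccl5 fell in both experiments, and the difference is one of size.
The differences of Ikbkg, Ifi203 and Trim25 were kept in 5, 7 and 10 of the 12 fits without 1 library.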

How the results depend on the processing

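Of 436 values of the sensor genes under an alternative, 414 kept their direction and their side of the threshold, 12 lost a call, 3 gained one and 7 turned in direction. For Idh2 and the partner genes that were called, 1038 of 1165 were kept and 127 lost their call. The number of sensor genes higher in 2MUT, 1 as reported (Ddx58), was 0 with no minimum level, 0 with no trend and 0 with an unmoderated test, and 0 to 1 without 1 library. The number higher with 2-HG, 1 as reported (Mb21d1), was 0 with a minimum of 10 RPM, where Mb21d1 was not among the genes tested, and 0 with an unmoderated test. Sensor genes with a lower change in 2MUT than with 2-HG, 1 as reported, were 0 with a minimum of 10 RPM, 2 with median-of-ratios scaling, 2 with an unmoderated test, and 1 to 2 without 1 library, the second being Mavs. The unmoderated test called 1021 genes higher and 1223 lower in 2MUT (1826 and 1915 as reported), and 1098 higher and 1139 lower with 2-HG (1668 and 1737 as reported). The unmoderated test uses the same fold changes and estimates the variance of each gene alone. How much of the drop in calls this accounts for was not tested.

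The values that turned were near 0. Mavs with 2-HG, -0.03 as reported, was 0.0167 without 2-HG(-) 1 and -0.0936 to 0.0167 without 1 library. The difference for Tmem173 was 0.0384 with quantile normalization, 0.0235 with 75th percentile scaling, and -0.0554 to 0.0304 without 1 library. The scaling alternatives moved the median of all genes by under 0.1.

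The deviations of same-numbered libraries correlated at 0.07, 0.03 and 0.03 in the mutant experiment and -0.46, -0.16 and 0.06 in the 2-HG experiment. Those of differently numbered libraries ran from -0.14 to 0.09 and from -0.41 to 0.48, respectively. Deviations from a mean of 3 libraries cannot show how cultures were paired. With the replicate number as a block, 1911 genes were higher and 1987 lower in 2MUT, and 1217 and 1286 with 2-HG. The counts of sensor genes were the same as without the block. Few reads limit the precision for Ifih1, Tlr3 and Mb21d1 in the mutant experiment, where groups held 6 to 38 reads.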
